A study of Mus musculus with 8 samples.

Results

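Mitochondrial complex I, the NADH:ubiquinone oxidoreductase, passes electrons from NADH to ubiquinone and pumps protons across the inner membrane. Its genes with symbols beginning Nduf were followed here in whole mouse hearts that carried or lacked an endothelial deletion of the oxygen-sensing prolyl hydroxylases PHD2 and PHD3. The members were every gene in the deposited table whose symbol starts with Nduf, 44 of 22518 genes. They comprise 36 complex I subunits, 6 assembly factors (Ndufaf1 to Ndufaf6), and Ndufa4 and its paralog Ndufa4l2, whose protein family belongs to complex IV despite the symbol. All 44 had a mean of at least 1 FPKM (fragments scaled by transcript length and by the mapped fragments of the library) and were tested. Ndufaf7 and Ndufaf8 are in the table under older symbols, outside the rule, and were read beside the members; Ndufb1 was not analysed here.

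The study took whole hearts of C57BL/6 mice at postnatal day 12 (P12) from 4 littermates labelled wild type and 4 labelled PHD2/3 endothelial knockout. The Cre line and the floxed alleles that made the deletion, and any allele shared with the controls, were not stated in the labels. RNA sequencing gave 1 library per sample, and the labels do not say more about how the 4 hearts of a group relate, so a p-value speaks only of the variation among these libraries. Complex I RNA was measured in the whole organ, in which endothelial cells are only one of several cell types.

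Complex I is an L-shaped assembly. Its matrix arm holds the NADH-oxidising N module and the ubiquinone-binding Q module, and its membrane arm holds the proton pumps. A small set of core subunits, some coded in mitochondrial DNA, carries the cofactors and the pumps, and the many accessory subunits surround and stabilise that core. Assembly factors help to build the complex and are not part of the finished enzyme. Heart muscle is rich in complex I, and prolyl hydroxylase loss stabilises hypoxia-inducible factors (HIF), which are known to activate Ndufa4l2 in many cell types.

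The labelled tissue and genotype were checked first. All 12 cardiomyocyte markers examined were present, with a lowest wild type mean of 52.1 FPKM and summed levels of 46709 to 52610 FPKM in wild type and 40392 to 49953 FPKM in knockout hearts. Egln1, which codes for PHD2, ranged from 45.2 to 57.9 FPKM in wild type and from 52.6 to 63.5 FPKM in knockout hearts (two-sided exact permutation p = 0.314). Egln3, which codes for PHD3, ranged from 17.96 to 38.7 FPKM and from 32.6 to 52.8 FPKM (two-sided exact permutation p = 0.0857; the smallest p that 4 against 4 allows is 0.0286). Neither targeted gene was therefore lower in the whole heart RNA of the hearts labelled knockout, and these levels do not check the deletion in endothelial cells. Wild type replicate 4 had a summed level of lung epithelium markers of 1246 FPKM. The other wild type libraries reached at most 0.509 FPKM and the knockout libraries at most 0.243 FPKM. Most of the sum in wild type replicate 4 was Scgb1a1 (1030 FPKM) and Scgb3a2 (206 FPKM), while Sftpc was at 0 and Sftpb at 0.454 FPKM. Erythroid marker sums were 2219 to 10578 FPKM in wild type and 366 to 2776 FPKM in knockout hearts. The deposited values were quantile normalised, so depth is unknown and the 39 highest ranks hold the same values in every library.

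Across all members, 9 of 44 passed the test (limma on log2(FPKM + 1), Benjamini-Hochberg adjusted p under 0.05 over 11390 genes): 8 were lower and 1 was higher in knockout hearts. The 8 lower members were all accessory subunits, Ndufs4, Ndufa5, Ndufa7, Ndufa3, Ndufa13, Ndufc1, Ndufb3 and Ndufb10, with knockout levels between 0.766 and 0.845 of wild type. The 1 higher member was Ndufa4l2, at 2.03 times the wild type level. Among all genes tested, 6.01% were called lower and 6.15% higher. The 22.2% of subunits called lower stands above that share in this fit, and 0 of 6 Ndufaf genes were called. With the transcript length trend of all genes removed, 1 of 36 subunits was called lower, beside 5.92% of all genes. The members were fitted together with all genes, and no test was made of a class as a whole. In whole-organ RNA, fewer cells of a type and less RNA per cell cannot be told apart. The plot of the differences shows the members by class.

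**Figure D1:**
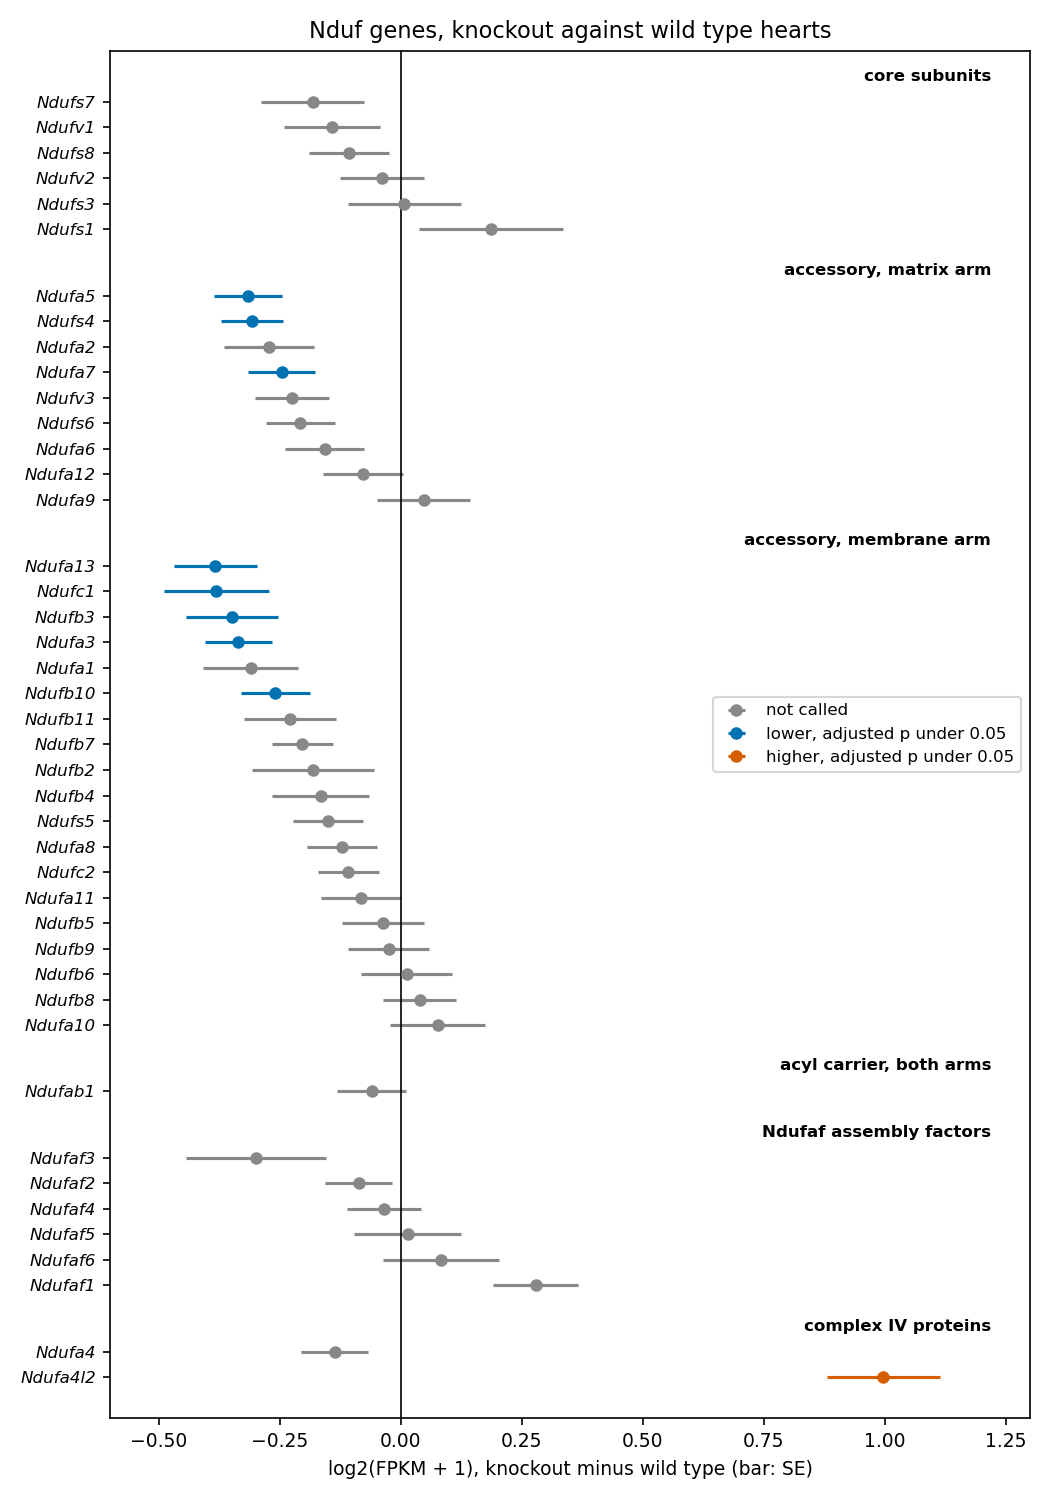
Knockout minus wild type difference of 43 of the 44 members on the log2(FPKM + 1) scale, with its standard error (bars; n = 4 per group), ordered within subunits, assembly factors and the complex IV proteins. Most subunits lie left of 0, while the 6 Ndufaf genes lie 3 on each side and Ndufa4l2 stands apart at 0.997.

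Ndufa4l2 was the member with the largest difference in either direction. It is known as a HIF target that lowers mitochondrial respiration and as a gene enriched in pericytes, the mural cells of capillaries. Wild type hearts had 20.6, 29.8, 23.9 and 23.1 FPKM and knockout hearts 54.7, 50.4, 49.3 and 43.0 FPKM. Every knockout value was above every wild type value. The means were 24.3 ± 3.90 and 49.3 ± 4.83 FPKM (SD, n = 4 each), a difference of 0.997 ± 0.12 on the log2 scale (SE; limma, Benjamini-Hochberg adjusted p = 0.00148). The gene lies on mouse chromosome 10, chr10:127514967-127517154 on the plus strand (GRCm38, GENCODE M21), and overlaps Shmt2, a serine-metabolising enzyme gene on the opposite strand. Shmt2 also rose, from 14.8 ± 0.774 to 19.8 ± 2.07 FPKM (SD, n = 4 each; 0.39 ± 0.09 on the log2 scale, limma adjusted p = 0.0235). Whether the counting separated strands is not given, so reads of the overlap cannot be assigned to either gene. Of 7 smooth muscle and pericyte markers, 1 was called higher (Tagln, a smooth muscle actin-binding protein) and 0 lower, beside 6.15% and 6.01% of all genes tested. Their summed level was 676 to 1116 FPKM in wild type and 660 to 931 FPKM in knockout hearts. Acta2 alone ran from 363 to 825 FPKM and from 293 to 610 FPKM. The part of these markers in the Ndufa4l2 result was not tested. The pericyte gene Rgs5 went from 219 ± 1.35 to 247 ± 30.5 FPKM and the pericyte potassium channel gene Kcnj8 from 23.5 ± 1.68 to 15.8 ± 6.31 FPKM (SD, n = 4 each), and neither passed the test.

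Ndufa4 itself, the paralog found in cytochrome c oxidase, was the most abundant member. It had 2195, 2356, 2006 and 2356 FPKM in wild type and 2038, 2038, 2006 and 2006 FPKM in knockout hearts. The groups share a value, and the repeated values are steps that quantile normalisation gives to the highest ranks. The difference of -0.14 ± 0.07 did not pass the test (limma adjusted p = 0.218). Whether the differences of Ndufa4l2 and Ndufa4 are unequal was not tested.

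The matrix arm held 3 of the lower subunits out of 16. Ndufs4, an accessory subunit of the N module whose loss in mice causes a fatal brain disease, had 147, 159, 149 and 152 FPKM in wild type hearts and 128, 122, 117 and 123 FPKM in knockout hearts. The groups did not overlap, as in 10.4% of all genes tested with knockout below. The means were 152 ± 5.49 and 122 ± 4.22 FPKM (SD, n = 4 each), a difference of -0.31 ± 0.06 (limma adjusted p = 0.0162). Ndufa7, another N module subunit, had 390.5, 404, 398 and 393 FPKM against 323, 319.9, 325 and 371 FPKM. Knockout replicate 4 was the highest of the knockout values and still below wild type (-0.25 ± 0.07, limma adjusted p = 0.0476). Ndufa5, an accessory subunit of the Q module, had 813, 861, 790.2 and 883 FPKM against 700.3, 648, 636 and 705 FPKM. Its groups did not overlap either (-0.32 ± 0.07, limma adjusted p = 0.0195).

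The membrane arm held 5 of the lower subunits out of 19. Ndufa3, a small accessory subunit near the arm junction and the most abundant subunit of all, had 1275, 1338, 1206 and 1293 FPKM in wild type and 1008, 934, 1030.4 and 1081 FPKM in knockout hearts. The lowest wild type value exceeded the highest knockout value. The means were 1278 ± 54.7 and 1013 ± 61.0 FPKM (SD, n = 4 each), a difference of -0.34 ± 0.07 (limma adjusted p = 0.0155). Ndufa13, also called GRIM-19 and linked to cell death signalling, had 318, 350.4, 325 and 344 FPKM against 269.5, 230.5, 239 and 289 FPKM, with no overlap (-0.38 ± 0.09, limma adjusted p = 0.0205). Ndufc1, a small subunit of the membrane arm, had 285, 379.6, 334 and 365 FPKM against 266, 259, 228 and 292 FPKM. It was the only one of the 8 whose groups overlapped, because knockout replicate 4 exceeded wild type replicate 1 (-0.38 ± 0.11, limma adjusted p = 0.0480).

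The other called membrane arm subunits lie in the distal part, on the side of the proton pumps ND4 and ND5. Ndufb3 had 202, 225, 199 and 227 FPKM in wild type and 189, 178, 149 and 154 FPKM in knockout hearts, with no overlap (-0.35 ± 0.09, limma adjusted p = 0.0419). Ndufb10, which carries disulphide-bonded cysteines of the intermembrane space, had 711, 802, 760.2 and 711 FPKM against 666, 631, 599 and 596 FPKM. Its groups also did not overlap (-0.26 ± 0.07, limma adjusted p = 0.0440). Ndufa3 overlaps Tfpt and Ndufa13 overlaps Tssk6 on the opposite strand and Yjefn3 on its own strand, and neither Tfpt nor Yjefn3 passed the test, while Tssk6 lay below the filter on low values and was not tested; 18 of 44 members overlap an opposite-strand gene. By module, 2 of 10 subunits of the N module, 1 of 6 of the Q module, 3 of 9 of the proximal and 2 of 10 of the distal membrane arm were lower, with Ndufab1, which sits in both arms, not called. The share over all genes tested was 6.01%, and modules this small cannot be ranked from such counts.

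**Figure D2:**
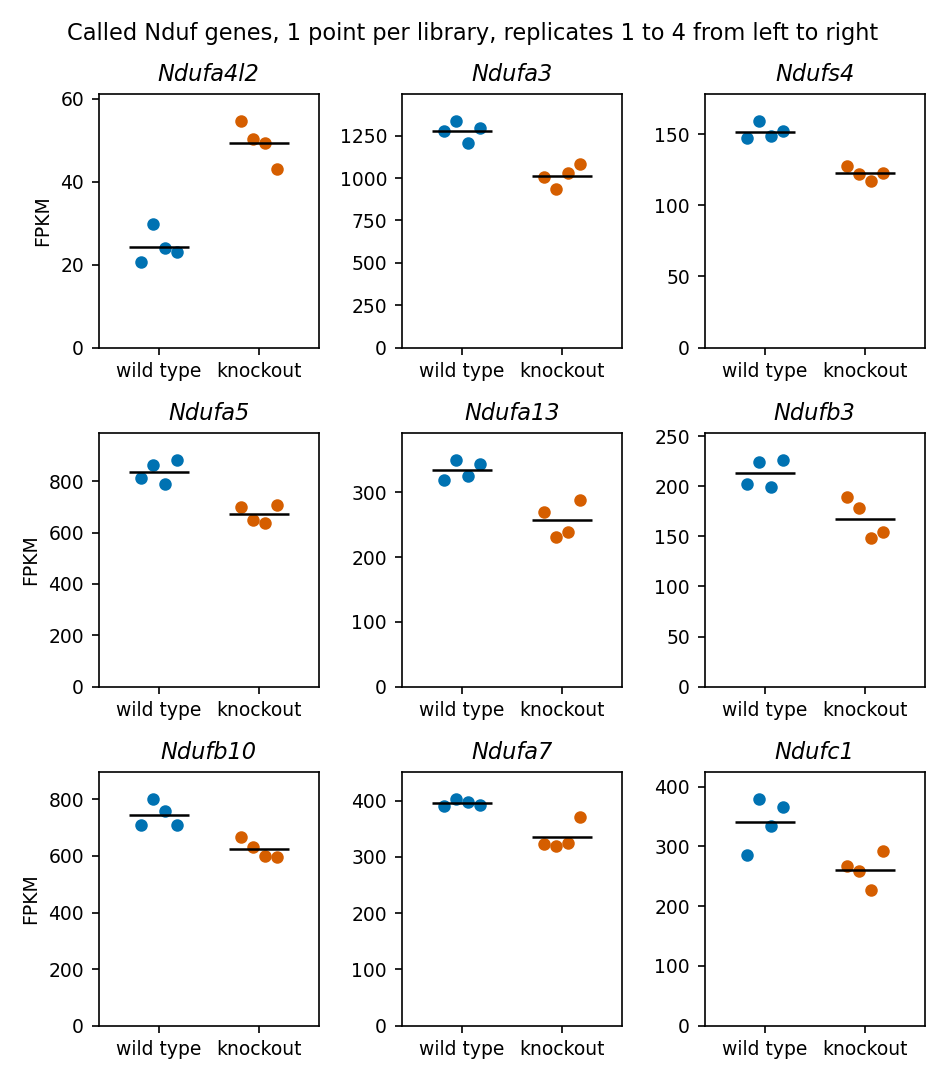
FPKM of the 9 called members in each of the 8 libraries (points) with the group mean (line); each panel has its own axis from 0. The 4 knockout points of Ndufa4l2 lie at 43.0 to 54.7 above all wild type points, and those of the 8 subunits lie lower, with an overlap for Ndufc1.

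Of the 7 core subunits coded in the nucleus, 0 were called and 0 had an unadjusted limma p under 0.05, against 12.2% and 29.6% of all genes tested. Ndufs1, the largest core subunit and a carrier of iron-sulphur clusters, had 261, 223, 248.8 and 188 FPKM in wild type and 219, 221, 292 and 322 FPKM in knockout hearts. The groups overlapped and the knockout hearts fell into a lower and a higher pair (0.19 ± 0.15, limma adjusted p = 0.435). Ndufv1, which binds NADH and flavin, had 442, 429, 431 and 412 FPKM against 352, 345, 394 and 473 FPKM. Knockout replicate 4 was above all wild type hearts and the other 3 were below them (-0.14 ± 0.10, limma adjusted p = 0.374). Ndufv2, its iron-sulphur partner, had 505, 533, 520.1 and 475 FPKM against 484, 441, 493 and 569 FPKM (-0.04 ± 0.09, limma adjusted p = 0.802).

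Among core subunits of the Q module, Ndufs3 and Ndufs7 also had knockout replicate 4 above all wild type hearts, and Ndufs8 did not. Ndufs3 had 324, 346, 331 and 309 FPKM in wild type and 295, 291, 322 and 424 FPKM in knockout hearts (0.01 ± 0.12, limma adjusted p = 0.977). Knockout replicate 4 was the highest of all 8 libraries. Ndufs7, which carries the last iron-sulphur cluster before ubiquinone, had 337, 368, 337 and 324 FPKM against 296, 258, 289 and 370.0 FPKM (-0.18 ± 0.11, limma adjusted p = 0.284). Ndufs8, another iron-sulphur subunit, had 174, 203, 181 and 168 FPKM against 172, 165, 155 and 182 FPKM (-0.11 ± 0.08, limma adjusted p = 0.423). The median difference was -0.04 over the 7 core subunits and -0.18 over the 29 accessory subunits. Of the accessory subunits, 8 were called lower and 25 lay below 0. Over all genes tested, 6.01% were called lower and 51.7% lay below 0. The core median depended on single libraries: leaving out knockout replicate 4 gave -0.115 and knockout replicate 2 gave 0.02, and leaving out wild type replicate 4 gave -0.07 and wild type replicate 2 gave -0.02. Whether core and accessory subunits differ was not tested.

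Among the 21 accessory subunits not called, differences ran from -0.31 for Ndufa1 to 0.08 for Ndufa10. Ndufs6, Ndufv3 and Ndufb7 had no overlap between the groups and adjusted p of 0.0888, 0.0819 and 0.0612 (limma, Benjamini-Hochberg). With the 7 called ones that did not overlap, knockout was below wild type without overlap in 10 of 36 subunits, or 27.8%, against 10.4% of all genes tested. Ndufa11, the least abundant subunit, had 91.0 ± 7.54 and 85.9 ± 5.60 FPKM (SD, n = 4 each; limma adjusted p = 0.543). Subunit means spanned 91.0 to 1278 FPKM in wild type hearts, and Ndufb8, Ndufb6, Ndufa9 and Ndufa10 were the accessory subunits with a difference above 0.

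The assembly factors were far less abundant than the subunits, with wild type means of 12.6 to 36.7 FPKM, so that every subunit lay above every Ndufaf gene. None of the 6 was called (limma; 1 at an unadjusted p under 0.05), and their median difference was -0.01, against -0.15 over the 36 subunits and -0.01 over all genes tested. Ndufaf1, which works with Acad9 and Ecsit to build the membrane arm, had 36.6, 38.3, 38.9 and 33.1 FPKM in wild type and 42.1, 45.3, 41.3 and 50.6 FPKM in knockout hearts. All knockout values were above all wild type values, as in 10.3% of all genes tested, but the difference of 0.28 ± 0.09 did not pass (limma adjusted p = 0.0671). Ndufaf3, which acts with Ndufaf4 on the Q module, had 17.8, 21.4, 18.5 and 18.7 FPKM against 19.4, 17.7, 13.6 and 11.8 FPKM. The groups overlapped (-0.30 ± 0.14, limma adjusted p = 0.197), and the gene overlaps Impdh2 on the opposite strand, which had a difference of -0.38 ± 0.12 (limma adjusted p = 0.0655).

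The other Ndufaf genes had differences within 0.09 of 0 and overlapping groups. Ndufaf2, a late factor for the N module, had 30.0, 33.3, 31.4 and 31.4 FPKM against 30.2, 31.1, 27.9 and 29.2 FPKM (-0.09 ± 0.07, limma adjusted p = 0.439). Ndufaf4 had 28.9, 29.3, 32.8 and 29.8 FPKM against 27.0, 29.8, 29.8 and 31.3 FPKM (-0.03 ± 0.08, limma adjusted p = 0.797). Neither protein is part of the finished enzyme. Ndufaf5, which hydroxylates an arginine of Ndufs7, had 15.7, 21.2, 17.1 and 14.9 FPKM against 16.3, 19.0, 16.6 and 17.2 FPKM (0.01 ± 0.11, limma adjusted p = 0.946). Ndufaf6 had 12.5, 14.7, 11.5 and 11.7 FPKM against 13.3, 15.9, 10.8 and 13.8 FPKM (0.08 ± 0.12, limma adjusted p = 0.683). In both genes the highest knockout library was replicate 2. Ndufaf7, a methyltransferase, and Ndufaf8, the partner of Ndufaf5, also did not pass, at 0.22 ± 0.09 and -0.28 ± 0.14 (limma adjusted p of 0.137 and 0.208).

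**Figure D3:**
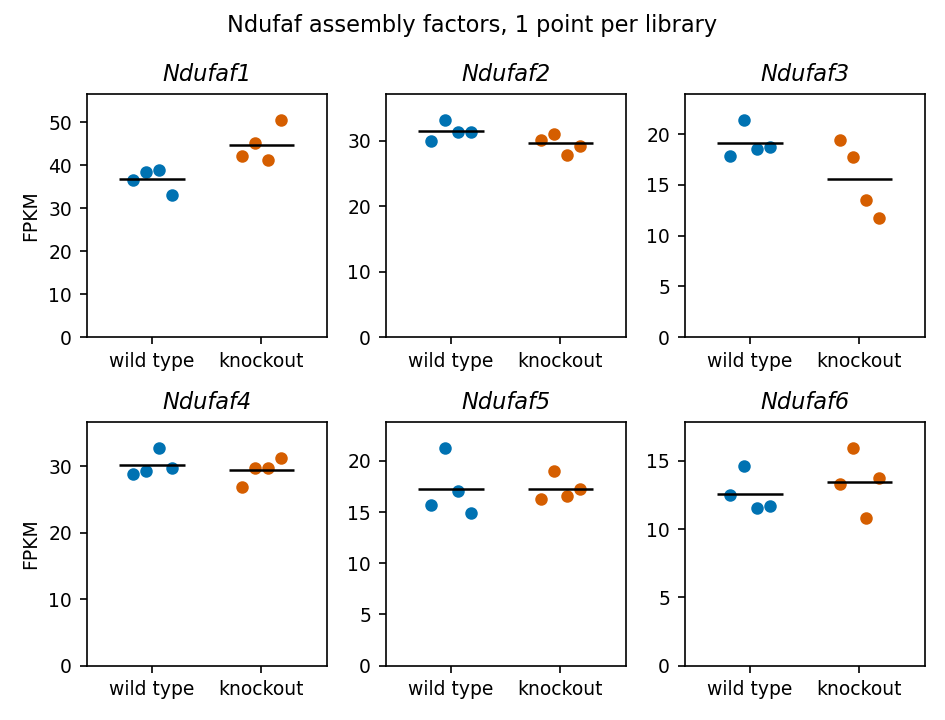
FPKM of the 6 Ndufaf genes in each library (points) with the group mean (line); each panel starts at 0. The knockout points of Ndufaf1, 41.3 to 50.6 FPKM, lie above the wild type points, and the groups overlap in the other 5 genes.

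Complex I assembly factors with other symbols gave 1 called lower and 0 higher of 12, beside the 6.01% and 6.15% over all genes. The called gene was Dmac2, listed as Atp5sl, a factor of the distal membrane arm. It had 28.7, 24.6, 22.8 and 22.8 FPKM in wild type and 21.0, 20.2, 18.1 and 17.7 FPKM in knockout hearts, without overlap (-0.34 ± 0.10, limma adjusted p = 0.0469). Their median difference was -0.10. Of the 7 complex I subunits coded in mitochondrial DNA, 0 passed the test (limma; 1 at an unadjusted p under 0.05), with a median difference of 0.11, but these genes sit on the shared steps of the highest ranks and their differences are only as fine as those steps.

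Promoters of subunits were searched for motifs of factors known to drive mitochondrial or hypoxia genes, in the 250 bases before the RefSeq start. For Ndufa13 and Ndufa5 these bases lay inside the gene span of GENCODE M21, and for others, among them Ndufs4, in part. RefSeq windows (GRCm38.p6) were found for 38 of 44 members, among them 32 subunits and all 8 called lower, and none for Ndufa4l2. Of the HIF core, only the form ACGTG was searched, and the form GCGTG was not counted in any gene. ACGTG was present on either strand in 2 of the 8 lower subunits (25.0%) and in 4 of the 32 subunits (12.5%). It was present in 18.5% of all 27025 genes with a window. The letters CATGCGC from the NRF1 motif, the ETS motif CCGGAAG, the YY1 motif AAGATGG and the ERR motif AAGGTCA were each in 0 of the 8 lower subunits, against 3.68%, 7.83%, 5.18% and 4.70% of all genes. Over the 32 subunits they were in 4 (12.5%), 3 (9.38%), 0 and 3 (9.38%), in the same order. With shares this low over all genes, 0 of 8 does not set the lower subunits apart. These are matches of letters in short windows and say nothing of binding. Ndufa5 and Ndufa7 had 2 windows each, and a gene counted if any of its windows matched. Of the 2 Ndufa7 windows, 1 is printed. The windows below are of Ndufa3 and Ndufa7, which hold the HIF letters, of Ndufs4, the lower subunit called in most alternatives, which holds none of the 5 motifs, and of Ndufaf1, the assembly factor without overlap, which holds the ETS motif. Capitals mark matches of the searched letters only. In Ndufa7 the letters read ACGTG on both strands as CACGTG, which is also an E-box. The windows lie at chr7:3617123-3617372 (plus strand), chr17:33824322-33824571 (plus strand), chr13:114388095-114388344 (minus strand) and chr2:119662835-119663084 (minus strand), in the same order, each printed 5′ to 3′.
Ndufa3: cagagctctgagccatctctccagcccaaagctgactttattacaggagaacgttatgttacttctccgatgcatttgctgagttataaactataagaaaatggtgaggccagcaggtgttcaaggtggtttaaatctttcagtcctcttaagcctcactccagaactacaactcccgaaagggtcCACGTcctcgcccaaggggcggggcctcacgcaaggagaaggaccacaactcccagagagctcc
Ndufa7: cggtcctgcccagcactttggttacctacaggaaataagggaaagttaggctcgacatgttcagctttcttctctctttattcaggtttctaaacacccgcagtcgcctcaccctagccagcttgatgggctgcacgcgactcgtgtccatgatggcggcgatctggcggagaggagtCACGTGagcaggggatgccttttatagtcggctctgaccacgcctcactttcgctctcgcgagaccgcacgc
Ndufs4: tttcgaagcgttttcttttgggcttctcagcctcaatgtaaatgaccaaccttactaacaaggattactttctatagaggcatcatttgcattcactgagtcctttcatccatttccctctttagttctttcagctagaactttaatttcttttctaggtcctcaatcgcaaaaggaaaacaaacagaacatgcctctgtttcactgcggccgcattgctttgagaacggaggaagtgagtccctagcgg
Ndufaf1: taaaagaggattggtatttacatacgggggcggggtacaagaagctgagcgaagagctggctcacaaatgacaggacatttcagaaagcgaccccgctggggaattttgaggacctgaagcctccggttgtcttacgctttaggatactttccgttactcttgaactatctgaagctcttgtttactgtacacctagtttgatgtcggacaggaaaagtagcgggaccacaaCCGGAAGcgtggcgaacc

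Libraries differed in the level of the subunits as a class. Knockout replicate 4 was the highest knockout value in 29 of 36 subunits (80.6%, against 35.5% of all genes tested), and wild type replicate 2 was the highest wild type value in 25 of 36 (69.4%, against 24.7%). The mean log2 level of the 36 subunits, relative to the wild type mean, was -0.16, -0.24, -0.21 and 0.02 in knockout replicates 1 to 4 and between -0.04 and 0.07 in wild type. Knockout replicate 4 thus lay within the wild type range and the other 3 lay below it. In its title, knockout replicate 4 has a library number far outside the run of the other libraries. Whether it was prepared or sequenced with them is not stated. That library was also the lowest knockout library in several marker sums. It had 366 FPKM of erythroid markers (the other 3 had 1147 to 2776), 466 FPKM of fibroblast markers (629 to 668) and 40392 FPKM of cardiomyocyte markers (45364 to 49953). The mean log2 level of the cardiomyocyte markers, relative to the wild type mean, was -0.02, -0.05, 0.08 and 0.01 in knockout replicates 1 to 4. On that scale replicate 4 was not the lowest. The part of these markers in its subunit levels was not tested. The 7 core subunits had -0.14, -0.21, -0.05 and 0.23, and the 29 accessory subunits -0.17, -0.24, -0.24 and -0.03, in the same libraries. The Ndufaf genes had 0.00, 0.11, -0.12 and -0.02, within the wild type range of -0.08 to 0.13 except for knockout replicate 3.

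**Figure D4:**
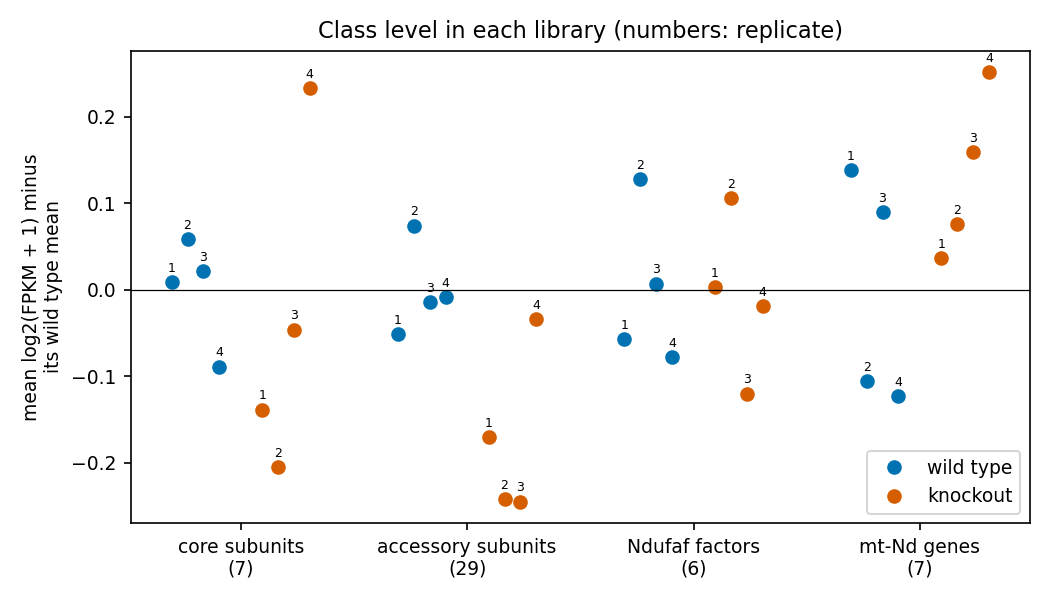
Mean log2 level of core subunits, accessory subunits, Ndufaf genes and complex I genes of mitochondrial DNA (mt-Nd) in each library (points), relative to the wild type mean of the class; numbers are replicates. Knockout replicate 4 lies above the other knockout libraries for both subunit classes, at 0.23 for the core and -0.03 for the accessory subunits.

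Without knockout replicate 4, 13 subunits were called lower (limma; 6.13% of all genes), 2 of them core subunits, Ndufs7 and Ndufv1. Without wild type replicate 2, 0 subunits were called by limma, and 2.53% of all genes were called lower. There were then 12 subunits lower at an unadjusted p under 0.05, beside 11.3% of all genes. The count was 5 without wild type replicate 1 (4.02% of all genes), 4 without replicate 3 (3.65%) and 2 without replicate 4 (3.43%). It was 2 each without knockout replicates 2 (3.29%) and 3 (3.85%). All 8 called subunits kept a difference below 0 in all 20 alternatives. Ndufs4 was called in 18 of them and Ndufa3 in 16, Ndufa5 and Ndufa13 in 13, and Ndufb3, Ndufb10, Ndufa7 and Ndufc1 in 7. Ndufa4l2 was called in 20 of 20, with adjusted p from 0.000368 to 0.0146.

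Subunit transcripts are short, and in these libraries short genes differed from long ones as a whole. Over the 1134 genes with the shortest principal transcripts, 123 to 1213 bases, the median difference was -0.13 and 11.1% were called lower. Over the 1133 with the longest it was 0.09, with 11.3% called higher. This shortest group held 24 of the 36 subunits and 5 of the 8 called lower. Spearman's rho of difference and length was 0.232 over 11326 genes and 0.307 over the 36 subunits, which share their libraries and are not independent. With the length trend of all genes removed, 1 subunit was called lower, Ndufs4 (-0.26 ± 0.06, limma adjusted p = 0.0226, with 5.92% of all genes lower). Of the 36 subunits, 21 then lay below 0, beside 5868 of all 11326 genes. At an unadjusted limma p under 0.05, 13.89% of the subunits were then lower, beside 14.95% of all genes. Ndufa3 then had -0.17 ± 0.10 (limma adjusted p = 0.302). Ndufa4l2 stayed higher (1.11 ± 0.10, limma adjusted p = 0.000498). The subunit median moved from -0.15 to -0.05 and the Ndufaf median from -0.01 to 0.08. The part of length in the subunit result was not tested beyond this fit.

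**Figure D5:**
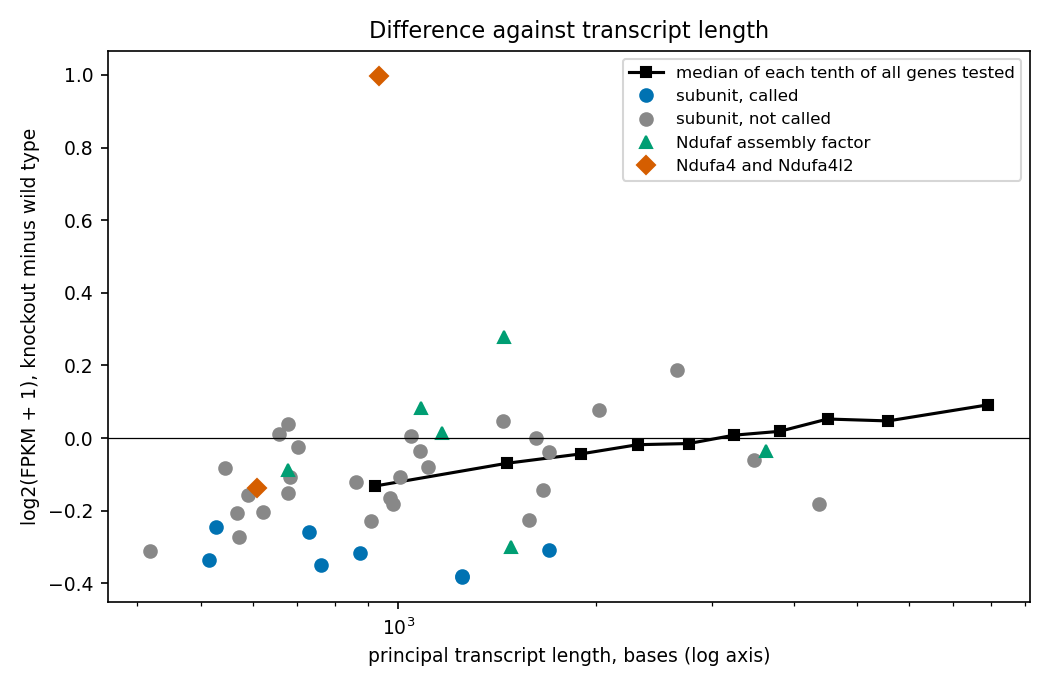
Knockout minus wild type difference on the log2(FPKM + 1) scale against principal transcript length in bases (log axis) for the members, with the median of each of 10 equal groups of all genes tested by length. The medians run from -0.13 for the shortest to 0.09 for the longest genes, and most subunits sit among the shortest; Ndufa13 and Ndufc1 lie almost on one point.

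Markers of other cell types also differed between the groups. Fibroblast markers summed to 833 to 938 FPKM in wild type and 466 to 668 FPKM in knockout hearts, with 3 of 7 called lower, beside 6.01% of all genes tested. Endothelial markers summed to 564 to 677 FPKM and 502 to 598 FPKM, with 3 of 10 called lower. Their mean log2 level, relative to the wild type mean, was -0.06 to 0.10 in wild type and -0.42 to -0.12 in knockout hearts, without overlap. Pecam1, an endothelial adhesion gene, went the other way, from 94.5 ± 5.001 to 111 ± 6.94 FPKM (SD, n = 4 each), without overlap and without passing the test (limma adjusted p = 0.0665). Among 12 cardiomyocyte markers 1 was called higher, Mybpc3, a sarcomere protein gene, and 1 lower, Tnni3, the adult cardiac troponin I gene, beside 6.15% and 6.01% of all genes. The 5 erythroid markers tested all had an unadjusted p under 0.05 and were lower, and 0 passed after adjustment (limma); 29.6% of all genes had such a p in either direction. Of 4 adipocyte markers tested, 0 were called, beside 6.15% of all genes higher and 6.01% lower. Among them Ucp1, a brown adipocyte marker, ran from 0.132 to 10.1 FPKM in wild type hearts. It had 2.68, 15.4, 11.4 and 0 FPKM in knockout replicates 1 to 4. The part of all these markers in the subunit result was not tested.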

How the data were processed

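Whole hearts of 4 wild type and 4 PHD2/3 endothelial knockout mice were sequenced with TruSeq libraries, per the labels' protocols. The submitters' processing notes name TopHat2, Cufflinks and the mm10 build, without versions; strandedness is not stated. The deposited table does not name its unit; its values were read as FPKM, quantile normalised by the authors, because Cufflinks gives FPKM. Columns share 1 distribution, so depth and counting error are unknown, and 14 of 44 members hold a value that recurs between libraries.

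The 11390 genes whose mean over the 8 libraries reached 1 FPKM were transformed to log2(FPKM + 1) and compared in limma 3.58.1 (R 4.3.3; lmFit and eBayes with trend and robust options, no covariate). P-values were Benjamini-Hochberg adjusted over all genes kept, with calls at adjusted p under 0.05. Fold changes on this scale understate those of low genes. An exact permutation test over 70 splits was run for Egln1 and Egln3 (scipy 1.17.1). The fit was tested on simulated data for 11390 genes, each drawn independently of the others. It recovered 12% of 50 genes changed 1.25-fold, 66% changed 1.5-fold, 84% changed 2-fold and 96% changed 4-fold. Of 137 calls, 8 were false. The real data gave 1385 calls and their libraries shift many genes together, so these shares do not carry over to them. Coordinates, principal transcript lengths and overlaps came from GENCODE M21 (GRCm38), in which 44 members matched. Genes named with per-sample values were the 7 core subunits, the Ndufaf genes, Ndufa4, Ndufa4l2, every called member, and the extremes of level and change. The result of 1 gene under this rule is not reported here, and the gene stays in the counts. Rgs5, Kcnj8, Tagln, Mybpc3, Tnni3, Pecam1, Ucp1, Shmt2, Impdh2 and the accessory subunits named without a call were chosen after their values were seen. The members, lists and alternatives were chosen with earlier results of these data known. The alternatives were 20 settings; the fit with the longest transcript length and the one without both replicates 4 were added after seeing the data. Python 3.11.15, pandas 2.3.3 and matplotlib 3.10.9 were used.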

Additional observations from a re-analysis of the deposited data

Results flagged for a closer look

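In 8 of 130 groups of 4 samples, 1 library stood farther from the nearest other than Dixon's 95% critical value allows; chance flags about 1 in 20 groups. Knockout replicate 4 was the highest library by such a gap for Ndufa10 (312 FPKM, nearest 247), Ndufa7 (371 FPKM, nearest 325), Ndufa9 (393 FPKM, nearest 305) and the complex I factor Aifm1 (71.5 FPKM, nearest 53.7). Wild type replicate 4 was the lowest for Ndufb5 (538 FPKM, nearest 580.1). The mitochondrial genes mt-Nd1 (22491 FPKM), mt-Nd4 (15641 FPKM) and mt-Nd6 (11528 FPKM) had a lowest knockout library 1 step of the shared values below the other 3, which all held 1 value.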

How the results depend on the processing

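The count of 8 members called lower became 4 without a filter on low values (3.00% of all genes lower), 4 without trend and robust options (5.71%), 15 with array weights (9.26%), 1 with the transcript length trend removed (5.92%) and 1 with the longest annotated transcript length in its place (5.99%). It was 6 with cyclic loess (5.58%) and 10 without both replicates 4 (4.68%). In that last setting 36 of 36 subunits lay below 0, with a median difference of -0.2153. When 1 library was left out, the count of members called lower was 0 to 13. With the replicate number as a block, 0 members were lower (2.55% of all genes), 11 subunits had an unadjusted limma p under 0.05 and were lower (13.0% of all genes), and 613 genes in all were called against 1385; same-numbered libraries did not deviate together (r of -0.226, 0.00930, 0.102 and -0.0966), so the numbers were not read as pairs. The median difference of the subunits moved to -0.0516 with the length trend removed and to -0.0630 with the longest transcript length, and that of the Ndufaf genes to 0.0817 with the length trend removed. The count of 1 called assembly factor without an Nduf symbol became 0 without a filter, with cyclic loess, without trend and robust options, with the replicate block, with the longest transcript length and without both replicates 4, became 2 with array weights, and was 0 to 1 when 1 library was left out. The count of 1 higher member and of 0 Ndufaf genes called held in all 20 alternatives, and no called member changed sign. Depth is unknown, and a subunit that was not called is not shown to be unchanged. The 12% recovery of simulated 1.25-fold changes came from a simulation with far fewer calls, so it does not give the power of this test here.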
